A study of Mus musculus with 9 samples.

Results

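The hypoxia and glycolysis genes described here comprised 39 genes chosen by symbol for their place in these pathways: 19 for glucose uptake and glycolysis (2 glucose transporters, 14 glycolytic enzymes and 3 regulators) and 20 for the hypoxia response (2 HIF alpha subunits, 2 HIF prolyl hydroxylases and 16 hypoxia-responsive genes). All 39 were among the 19481 genes of the deposited table, and all 39 passed the filter on low counts that kept 14725 genes. The lowest count of any of them in any tumor was 46, for Adm.

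Glycolysis splits glucose into pyruvate in the cytosol. Where oxygen is short, or in tumor cells that ferment glucose despite oxygen, the pyruvate is reduced to lactate and exported. Hypoxia-inducible factor (HIF) is the transcription factor that couples this pathway to oxygen. Its alpha subunits are hydroxylated and degraded while oxygen is present, and when they are stable they raise the transcription of glucose transporters, glycolytic enzymes and a set of genes for blood vessel growth, mitochondrial turnover and collagen modification. The transmembrane serine protease Tmprss11b has been tied to lactate export from lung squamous cell carcinoma (LUSC), so the RNA of these genes was described in tumors with and without its depletion.

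KLN205 is a murine LUSC line that forms subcutaneous tumors in immunocompetent DBA/2 mice. All 9 tumors carried a doxycycline-inducible SMART shRNA vector and all 9 mice received doxycycline in the drinking water from a mean tumor volume of 100 mm3, so by design the groups differ in the shRNA only: shControl, sh2 Tmprss11b and sh3 Tmprss11b, with 3 tumors each (the study writes shRNA1 and shRNA2 for the constructs labelled sh2 and sh3). The mice were females of 6 to 8 weeks at injection into the flank, tumor volumes were last measured at day 50, and the sequenced RNA came from pieces of whole tumor. It therefore mixes carcinoma cells with host cells, in which Tmprss11b was not targeted, and fewer cells of a type cannot be told apart from less RNA per cell. The study describes the knockdown tumors as smaller than the controls, and tumor volumes were not used here, so tumor size and shRNA group cannot be told apart.

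Assigned counts were 20653219 to 24047784 per tumor. The targeted gene, listed as Tmprss11bnl, had 18, 51 and 42 counts in the shControl tumors, 7, 2 and 5 in the sh2 Tmprss11b tumors and 10, 4 and 5 in the sh3 Tmprss11b tumors, with no overlap between controls and either knockdown group (edgeR log2 fold change -2.63 ± 0.46 SE for the mean of both groups, unadjusted p = 0.000298, adjusted p = 0.982). The epithelial marker Epcam was at 646 to 1151 CPM. Of 12 squamous and basal markers, Trp63 was low at 0.370 to 6.94 CPM. Krt5 was at 87.4 CPM in shControl tumor 1 and at most 5.02 CPM in the other 8. Others of that list were higher: Krt14 was at 12.3 to 389.7 CPM, Krt6a at 46.4 to 291.9 CPM, Perp at 80.6 to 216.9 CPM and Pkp1 at 47.9 to 221.3 CPM. The list summed to 208.9 to 1260 CPM. Against shControl, 0 of 11 tested markers were positive in sh2 (median log2 fold change -0.99) and 1 of 11 in sh3 (-0.78). Muscle RNA differed widely: 12 skeletal muscle markers summed to 4026 CPM in shControl tumor 3 and 1294 CPM in sh3 Tmprss11b tumor 1, against 12.1 to 464 CPM in the other 7 tumors.

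No member differed between groups at a false discovery rate of 0.05 by edgeR's quasi-likelihood test in any of the 4 comparisons (each knockdown group against shControl, their mean against shControl, and sh3 against sh2), nor did any of the 14725 genes (percent called 0.0 in each). As a group, sh2 Tmprss11b lay somewhat above the controls for most members, with 33 of 39 log2 fold changes positive. The median was 0.23 against 0.01 over all genes tested, of which 51.8% were positive. Its tumors were not alike: tumor 1 exceeded every control for 3 members, tumor 2 for 20 and tumor 3 for 26. Tumor 1 had 13 of 39 members above their mean over all tumors, against 19, 31 and 7 in shControl tumors 1, 2 and 3. In sh2 against shControl 10 of 10 general epithelial markers were positive, with a median of 0.42 and 3 at an unadjusted p under 0.05. Their part in the members' values was not tested. The sh3 Tmprss11b group showed no such shift, with 20 of 39 positive and a median of 0.03, the value over all genes. Its tumors also differed: tumor 1 exceeded every control for 22 members, tumor 2 for 4 and tumor 3 for 3. Tumors 1, 2 and 3 of this group lay below every control for 7, 16 and 19 members. Between the knockdown groups, 31 of 39 members were lower in sh3 than in sh2, with a median of -0.24 against 0.03 over all genes. For the mean of both knockdown groups against shControl, 27 of 39 were positive with a median of 0.09.

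At an unadjusted p under 0.05, 0 members passed for sh2 against shControl (3.52% of all genes passed), 2 for sh3 against shControl (6.63%), 0 for the mean of both (4.09%) and 3 for sh3 against sh2 (7.18%). All 5 calls, on 4 genes, were lower in sh3: Adm and Lox against shControl, and Egln3, Hif1a and Lox against sh2. As shares of 39 these counts are near the background, and the first 3 comparisons share the same control tumors. Tumors of the groups compared did not overlap for 0, 2, 0 and 1 members in the same order (11.4%, 12.2%, 2.17% and 10.1% of all genes). DESeq2's Wald test called 1 member at an adjusted p under 0.05, Egln3 in sh3 against sh2, and edgeR's likelihood ratio test and limma-trend on TPM called 0. The median standard error of a member's log2 fold change was 0.27 in each pairwise comparison, and most 95% intervals spanned 0. On the TPM scale, where the median of all genes was itself -0.16 for sh3 against shControl, 7 of 39 members were positive for sh3 against shControl, 17 of 39 for the mean of both and 2 of 39 for sh3 against sh2, against 32 of 39 for sh2 against shControl. With total counts and no TMM factor, 21 of 39 were positive for the mean of both. The majority sign was kept in these settings for sh2 against shControl and for sh3 against sh2, and turned for sh3 against shControl (17 of 39 positive with total counts and with upper-quartile factors, as well as on TPM) and, on TPM alone, for the mean of both. On TPM both the measure and the test differ.

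**Figure D1:**
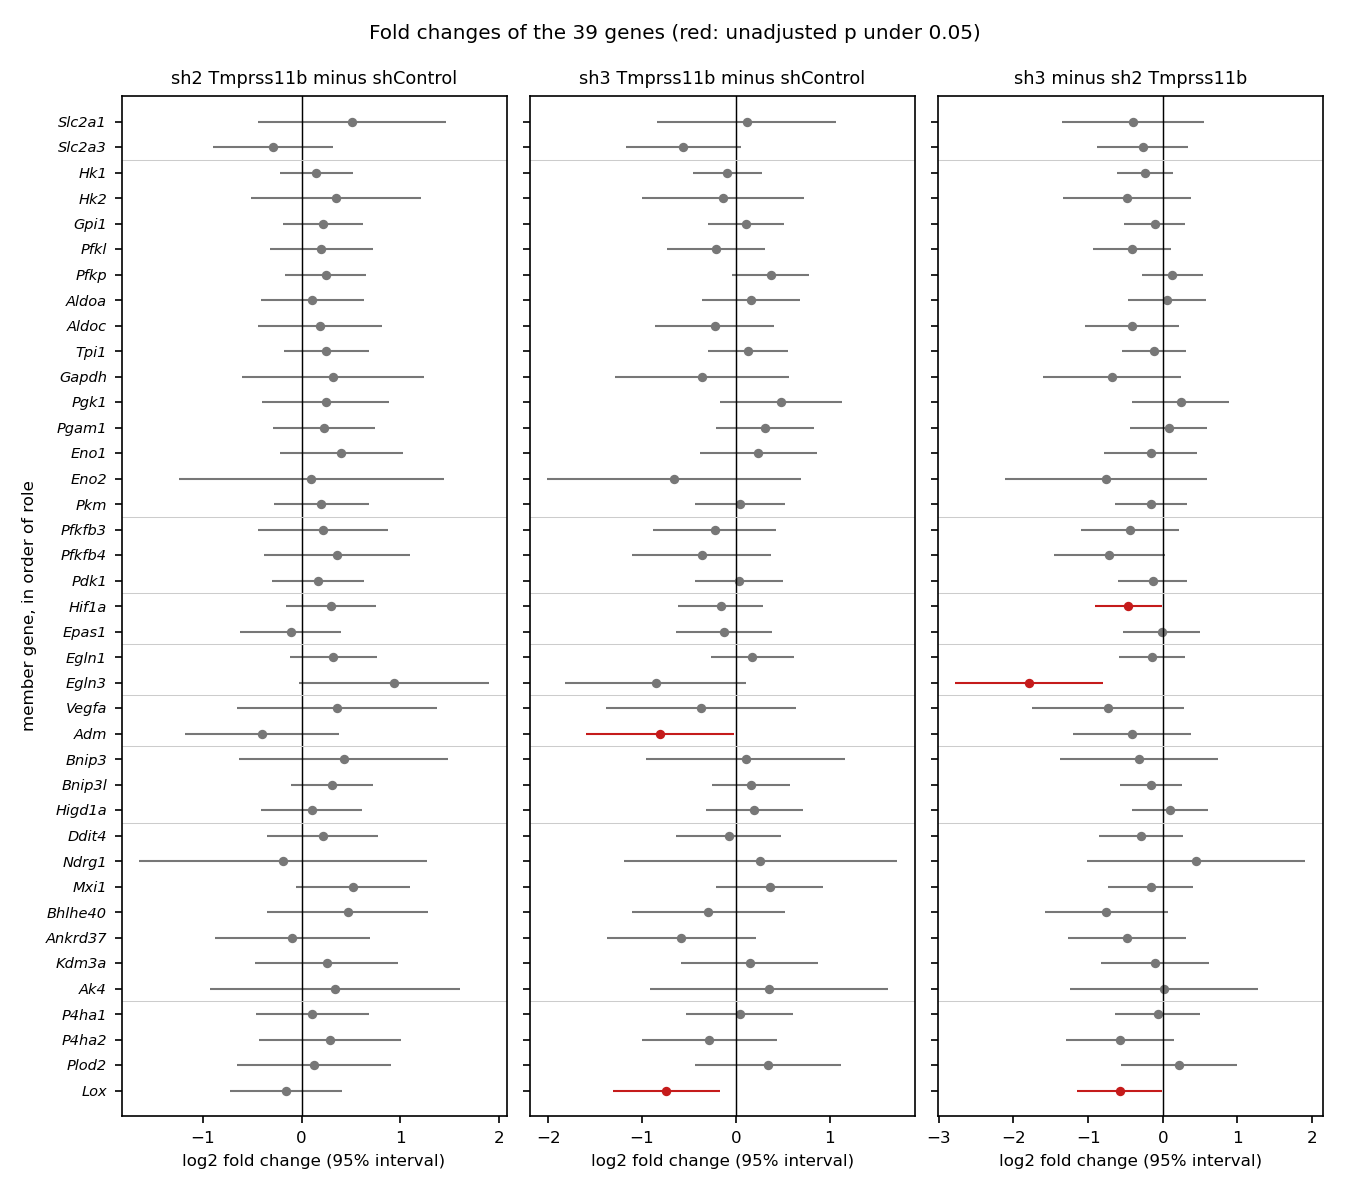
Log2 fold change (x axis) of each of the 39 genes (y axis, in order of role) with its 95% interval, for sh2 Tmprss11b against shControl, sh3 Tmprss11b against shControl, and sh3 against sh2; n = 3 tumors per group. Points sit to the right of 0 for 33 of 39 genes in the first panel and to the left for 31 of 39 in the third, and most intervals span 0; red marks an unadjusted p under 0.05.

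Tumors of the same group differed widely. The median within-group SD was 0.36 on the log2 scale for the 39 members, 0.31 for the glycolysis members and 0.38 for the hypoxia members, against 0.28 over all genes tested. The fold between the highest and the lowest tumor reached 2 or more for 23 of 39 members and was largest for Eno2 (8.71), Egln3 (7.03), Ndrg1 (6.54) and Ak4 (4.92). For 35 of 39 members the highest level was in 1 of 3 tumors: sh2 Tmprss11b tumor 3 (13 members), sh2 Tmprss11b tumor 2 (11) or sh3 Tmprss11b tumor 1 (11). Over all genes tested these tumors were the highest for 8.05%, 14.9% and 22.0%. For 32 of 39 the lowest level was in sh3 Tmprss11b tumor 3 (13), shControl tumor 3 (11) or sh3 Tmprss11b tumor 2 (8), against 10.1%, 9.68% and 17.2% of all genes. The median deviation of the members from their 9-tumor mean was 0.33, 0.13 and 0.30 on the log2 scale in the 3 tumors with most of the highest levels and -0.29, -0.24 and -0.27 in the other 3, while the median over all genes stayed between -0.02 and 0.01 in every tumor.

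High levels were not confined to knockdown tumors: shControl tumor 2 had a median deviation of 0.15, above that of sh2 Tmprss11b tumor 2, and 31 of 39 members above their mean, against 34, 28 and 27 in sh2 Tmprss11b tumor 3, sh3 Tmprss11b tumor 1 and sh2 Tmprss11b tumor 2. Different members peaked in the 3 knockdown tumors. Tumor 2 of sh2 Tmprss11b held the highest level of Slc2a1, Hk1, Hk2, Pkm, Gapdh, Pfkfb3, Pfkfb4, Hif1a, Egln3, Ddit4 and Bhlhe40. Tumor 3 of sh2 Tmprss11b led for Vegfa, Bnip3, Bnip3l, Ankrd37, Pdk1, Egln1, P4ha2, Lox, Gpi1, Pfkl, Aldoc, Tpi1 and Eno2. Tumor 1 of sh3 Tmprss11b led for Aldoa, Pgk1, Pgam1, Eno1, Pfkp, Ndrg1, Mxi1, Kdm3a, Ak4, P4ha1 and Plod2, and was the lowest of all 9 for Pfkfb3, Pfkfb4 and Epas1. Other cell markers differed in these tumors as well. The 10 general epithelial markers summed to 8963 and 7022 CPM in sh2 Tmprss11b tumors 2 and 3. In the other 7 they summed to 4085 to 5418 CPM. Among the 9 tumors, sh3 Tmprss11b tumor 1 had the lowest sums for 14 endothelial (303 CPM) and 9 macrophage markers (1693 CPM). That tumor was also the lowest for the squamous and basal (208.9 CPM), neutrophil (80.8 CPM) and adipocyte lists (39.5 CPM). In sh3 against sh2, where most members were lower, the general epithelial list had a median of -0.42 (9 of 10 negative, 2 at an unadjusted p under 0.05). Medians were -0.55 for neutrophils (8 of 8 negative), -0.69 for fibroblasts (7 of 10 negative) and -0.22 for endothelium (10 of 14 negative). They were -1.49 for red blood cells (7 of 7 negative, 5 at an unadjusted p under 0.05) and -2.75 for adipocytes (7 of 7 negative). T cells, macrophages and skeletal muscle had medians of 1.05 (9 of 9 positive), 0.42 (7 of 9 positive) and 2.97 (12 of 12 positive). The proliferation and squamous lists had medians of 0.18 (10 of 10 positive) and 0.05 (6 of 11 positive). In sh3 against shControl the medians were -1.26 for red blood cells and -4.14 for adipocytes (7 of 7 negative in both). The part of cell composition in the members' levels was not tested.

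**Figure D2:**
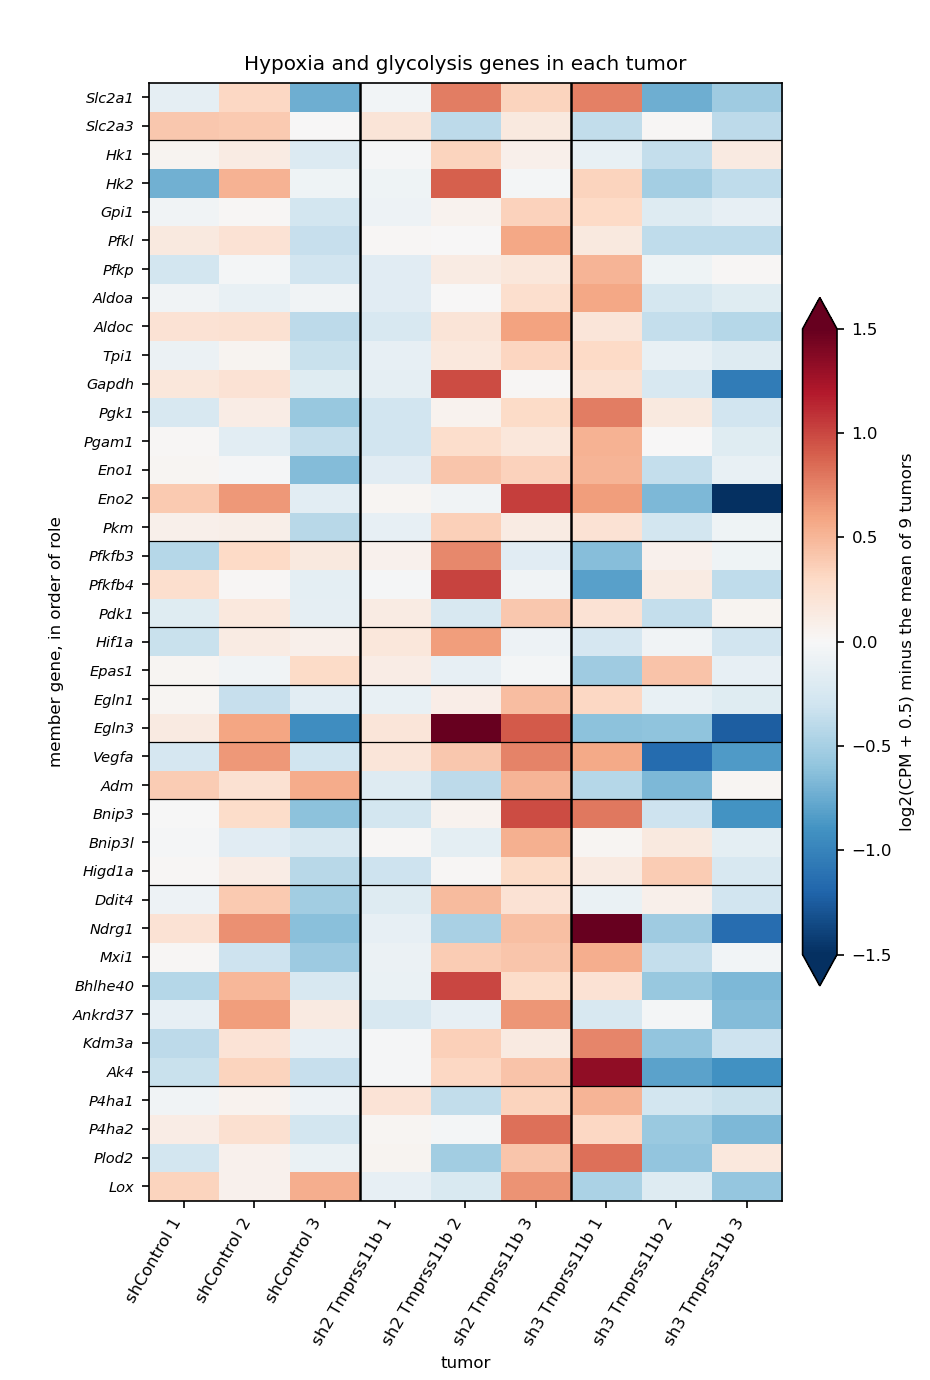
Heatmap of the 39 genes (rows, in order of role) in the 9 tumors (columns), colored by log2(CPM + 0.5) minus the mean of the 9 tumors. Columns shControl 2, sh2 Tmprss11b 2, sh2 Tmprss11b 3 and sh3 Tmprss11b 1 are mostly red and columns shControl 3, sh3 Tmprss11b 2 and sh3 Tmprss11b 3 mostly blue. Column sh2 Tmprss11b 1 has 13 of 39 members above the mean, so columns differ within every group.

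Single tumors bore on the counts. Without sh3 Tmprss11b tumor 1, in sh3 against shControl 8 of 39 members were positive and 31 negative, the median was -0.16, and 6 members passed an unadjusted p under 0.05, all lower (Ak4, Eno2, Lox, Ndrg1, P4ha2 and Vegfa), beside 14.4% of all genes. In sh3 against sh2 without it, 2 of 39 were positive and 10 passed, all lower, beside 19.0% of all genes, and 0 members passed the false discovery rate in either. Without sh2 Tmprss11b tumor 3, 24 of 39 members were positive for sh2 against shControl, with a median of 0.15. With both muscle-rich tumors left out (an alternative chosen after seeing the data), 31 of 39 members were positive for sh2, 5 of 39 for sh3 and 12 of 39 for the mean of both against shControl, with medians of 0.14, -0.27 and -0.08. Then 9 members passed an unadjusted p under 0.05 in sh3 against shControl, all lower, beside 9.27% of all genes.

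Glucose transporters bring glucose into the cell. Slc2a1 encodes GLUT1, the broadly expressed transporter and a classical HIF target. Slc2a1 was at 187, 256 and 124 CPM in the 3 shControl tumors, 199.6, 349 and 258 CPM in the 3 sh2 Tmprss11b tumors and 348, 124 and 142 CPM in the 3 sh3 Tmprss11b tumors. The first sh3 tumor was as high as the highest sh2 tumor, the other sh3 tumors were near the lowest control, and all 3 groups overlapped. The log2 fold change was 0.51 (95% interval -0.44 to 1.46) for sh2 and 0.11 (95% interval -0.84 to 1.06) for sh3 against shControl, and the sh3 value was -0.51 without sh3 Tmprss11b tumor 1. Slc2a3 was at 8.18, 8.15 and 6.10 CPM in the 3 shControl tumors, 7.04, 4.49 and 6.80 CPM in the 3 sh2 Tmprss11b tumors and 4.58, 6.15 and 4.49 CPM in the 3 sh3 Tmprss11b tumors. Slc2a3 encodes GLUT3, and was the member with the lowest level per length, at 3.57 ± 0.98 TPM over 9 tumors against 196 ± 81.1 TPM for Slc2a1. Per length Slc2a1 exceeded Slc2a3 in 9 of 9 tumors, by 31.0-fold to 119.7-fold. Slc2a3 had 1 of the 5 largest fold changes for the mean of both knockdown groups, -0.43 (95% interval -0.94 to 0.09), adjusted p = 0.982 by edgeR, with the groups overlapping.

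The 14 glycolytic enzymes cover the steps from glucose to pyruvate, and their levels per length spanned a wide range. Pkm, the pyruvate kinase of the last step, was the highest member at 1592 ± 297 TPM (mean and SD of 9 tumors), followed by the aldolase Aldoa at 1213 ± 292 TPM and the triosephosphate isomerase Tpi1 at 1020 ± 189 TPM. The ranges of Aldoa and Tpi1 overlapped, and so did those of Aldoa and Pkm. Eno1 and Gpi1 came next at 271 ± 74.9 TPM and 268 ± 49.8 TPM, whose spreads overlapped almost fully. In each pair of isozymes 1 form was higher in 9 of 9 tumors: Hk1 over Hk2 by a median of 1.74-fold, Pfkl over Pfkp by 3.66-fold, Aldoa over Aldoc by 44.1-fold and Eno1 over Eno2 by 24.6-fold. Counts per kilobase of transcript gave the same order in 9 of 9 tumors for all 4 pairs, with a median of 84.9-fold for Aldoa over Aldoc.

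In sh2 Tmprss11b against shControl 14 of 14 enzymes had a positive log2 fold change, from 0.10 (Eno2) to 0.40 (Eno1), with a median of 0.22, and 0 of 14 passed an unadjusted p under 0.05. In sh3 against shControl 8 of 14 were positive, from -0.66 (Eno2) to 0.48 (Pgk1), with a median of 0.07. Hk2 was at 52.7, 126 and 83.1 CPM in the 3 shControl tumors, 83.5, 163 and 85.5 CPM in the 3 sh2 Tmprss11b tumors and 109.9, 61.0 and 67.0 CPM in the 3 sh3 Tmprss11b tumors. Hk2 is the inducible hexokinase that traps glucose in tumor cells. Its levels crossed between groups, and the log2 fold change for the mean of both knockdown groups was 0.10 (95% interval -0.64 to 0.85). Pgk1 was at 32.5, 41.7 and 25.9 CPM in the 3 shControl tumors, 31.5, 39.8 and 47.2 CPM in the 3 sh2 Tmprss11b tumors and 65.6, 42.7 and 31.5 CPM in the 3 sh3 Tmprss11b tumors. Pgk1 encodes phosphoglycerate kinase, the first step of glycolysis that yields ATP, and had the largest positive fold change of the enzymes. Its log2 fold change was 0.48 (95% interval -0.17 to 1.13) in sh3 against shControl and 0.36 (95% interval -0.21 to 0.93) for the mean of both (adjusted p = 0.982, edgeR). In sh3 against shControl the value was near 0 when both muscle-rich tumors were left out.

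The levels of some enzymes are uncertain because other genes carry the same sequence. Gapdh, usually among the most abundant transcripts of a cell, was listed at only 12.5 ± 5.00 TPM, the fifth lowest of the 39 members, and 3.46 to 15.7 CPM. Of the 50-base windows of its longest coding transcript, 82.5% also occurred in transcripts of 222 other genes, 215 of them pseudogenes (GENCODE M21). The share was 72.2% for Eno1, 68.0% for Pgk1, 62.4% for Bnip3, 41.5% for Pgam1, 36.6% for Higd1a and 34.4% for Pkm, and 0% for 14 members including Hk2, Lox, Adm and Egln3. How reads that match several genes were counted is not given in the sources used here, so the levels of Pkm, Eno1 and Bnip3 given here, their ranks and the ratios with Eno2 and Bnip3l are uncertain. To show the extent of the identity, the coding 50-base window of the Gapdh transcript that occurs in the most other genes is given, 5′ to 3′, from the GENCODE transcript. The window, bases 655 to 704, was found in transcripts of 84 other genes.
Gapdh: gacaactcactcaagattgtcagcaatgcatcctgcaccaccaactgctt

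**Figure D3:**
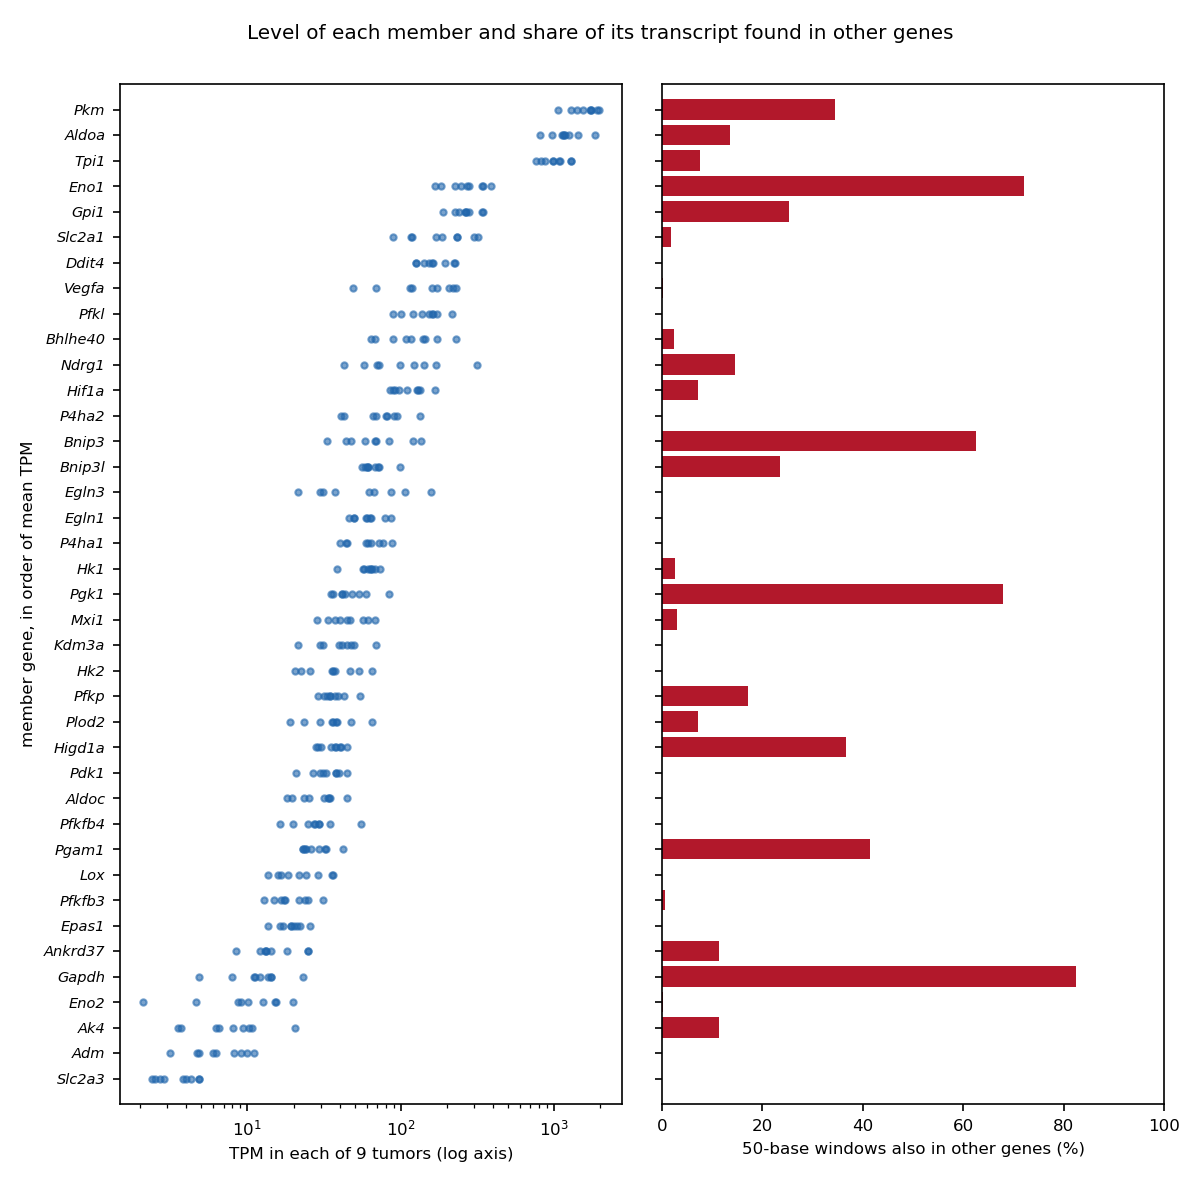
Left, TPM of each gene in each of the 9 tumors (log x axis), ordered by mean; right, percent of the 50-base windows of its longest coding transcript that also occur in transcripts of other genes. Pkm, Aldoa and Tpi1 lie highest, and Gapdh, with 82.5% of its windows shared, lies near the bottom at a mean of 12.5 TPM.

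The 3 regulators set how fast glucose is used and where pyruvate goes. Pfkfb3 and Pfkfb4 make the sugar bisphosphate that activates phosphofructokinase. Both were highest in sh2 Tmprss11b tumor 2 (75.4 and 83.9 CPM) and lowest in sh3 Tmprss11b tumor 1 (29.0 and 23.4 CPM), the tumor in which Aldoa, Pgk1, Pgam1 and Eno1 were highest. Their log2 fold changes in sh3 against sh2 were -0.44 (95% interval -1.10 to 0.21) and -0.72 (95% interval -1.46 to 0.02). Pdk1 encodes the kinase that blocks pyruvate dehydrogenase and so keeps pyruvate from being oxidized in the mitochondria. Pdk1 was at 66.2, 84.0 and 68.4 CPM in the 3 shControl tumors, 82.2, 63.5 and 99.8 CPM in the 3 sh2 Tmprss11b tumors and 87.7, 58.5 and 77.3 CPM in the 3 sh3 Tmprss11b tumors. The groups of Pdk1 overlapped throughout, and its log2 fold change for the mean of both was 0.10 (95% interval -0.31 to 0.51).

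HIF alpha subunits are controlled mainly through protein stability, so their RNA is not a readout of HIF activity. Hif1a was at 188, 258 and 249 CPM in the 3 shControl tumors, 265, 364 and 225 CPM in the 3 sh2 Tmprss11b tumors and 199, 229 and 194 CPM in the 3 sh3 Tmprss11b tumors. The sh2 tumors reached higher than any control in tumors 1 and 2, while all sh3 tumors lay within the range of the controls. Hif1a was lower in sh3 than in sh2 with a log2 fold change of -0.46 (95% interval -0.91 to -0.01), unadjusted p = 0.0475 and adjusted p = 0.673 by edgeR, and the groups overlapped, since sh3 Tmprss11b tumor 2 exceeded sh2 Tmprss11b tumor 3. Epas1 was at 46.5, 43.8 and 55.6 CPM in the 3 shControl tumors, 49.2, 41.6 and 44.3 CPM in the 3 sh2 Tmprss11b tumors and 31.2, 61.0 and 41.8 CPM in the 3 sh3 Tmprss11b tumors. Epas1 encodes HIF-2 alpha, which is prominent in endothelium, and was lowest in sh3 Tmprss11b tumor 1 and highest in sh3 Tmprss11b tumor 2. The 14 endothelial markers summed to 303 CPM and 518 CPM in those 2 tumors, and to between 398.5 and 544 CPM in the other 7. All 14 were in the table. The 9 macrophage markers summed to 1693 CPM and 7515 CPM in the same 2 tumors, and to between 2407 and 4395 CPM in the other 7. The part of either cell type was not tested. The Epas1 log2 fold change was -0.12 (95% interval -0.56 to 0.33) for the mean of both. Per length Hif1a was higher than Epas1 in 9 of 9 tumors, by 4.22-fold to 9.85-fold.

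The HIF prolyl hydroxylases mark the alpha subunits for degradation, and Egln3 is itself induced by HIF. Egln3 (chr12:54178981-54203860, - strand, GRCm38) gave the largest difference of the 39 genes. Egln3 was at 71.7, 98.3 and 33.9 CPM in the 3 shControl tumors, 74.1, 192 and 123 CPM in the 3 sh2 Tmprss11b tumors and 42.5, 42.9 and 27.3 CPM in the 3 sh3 Tmprss11b tumors. Every sh2 tumor exceeded every sh3 tumor, the lowest sh2 tumor being at 74.1 CPM and the highest sh3 tumor at 42.9 CPM, and both groups overlapped with the controls, which ranged from 33.9 to 98.3 CPM. Groups did not overlap for 10.1% of all genes in this comparison. The log2 fold change of sh3 against sh2 was -1.79 (95% interval -2.78 to -0.80), unadjusted p = 0.00265 and adjusted p = 0.673 by edgeR. DESeq2 gave an adjusted p of 0.0183 for the same difference, and over all alternatives the adjusted p ran from 0.0183 to 0.970, with the log2 fold change between -2.08 and -1.41. Against shControl, Egln3 had a log2 fold change of 0.93 (95% interval -0.03 to 1.90) in sh2 and -0.86 (95% interval -1.82 to 0.11) in sh3, so the mean of both was near 0 (0.04). In sh3 Tmprss11b tumor 1, Egln3 was low at 42.5 CPM although Ndrg1, Ak4 and Kdm3a were at their highest. Egln1, the main oxygen sensor of the family, stayed within 74.7 to 131 CPM, with log2 fold changes of 0.32 and 0.18 in sh2 and sh3 against shControl.

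Secreted factors act on vessels. Vegfa was at 207, 386 and 201 CPM in the 3 shControl tumors, 279, 326 and 414 CPM in the 3 sh2 Tmprss11b tumors and 367, 111 and 136 CPM in the 3 sh3 Tmprss11b tumors. Vegfa, the main growth factor for blood vessels, was thus higher in the first than in the other tumors of the sh3 group, and higher in shControl tumor 2 than in the other controls. Its log2 fold change was 0.36 (95% interval -0.65 to 1.37) in sh2, -0.37 (95% interval -1.38 to 0.64) in sh3 and -0.73 (95% interval -1.75 to 0.29) in sh3 against sh2. Adm was at 5.41, 4.80 and 6.14 CPM in the 3 shControl tumors, 3.45, 2.95 and 5.97 CPM in the 3 sh2 Tmprss11b tumors and 2.87, 2.34 and 4.11 CPM in the 3 sh3 Tmprss11b tumors. Adm encodes adrenomedullin, a vasodilator peptide and HIF target, and did not follow Vegfa: its highest level was in shControl tumor 3, where most members were low. All 3 sh3 tumors lay below all 3 controls, an arrangement that 12.2% of all genes showed in this comparison in either direction. The log2 fold change of Adm was -0.81 (95% interval -1.60 to -0.02) in sh3 against shControl, unadjusted p = 0.0457 and adjusted p = 0.753, and -0.61 (95% interval -1.27 to 0.06) for the mean of both (edgeR), the largest of the 39 in that comparison. Counts of 46 to 150 per tumor lay behind these values.

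The 3 mitochondrial proteins were positive in both knockdown groups, with medians of 0.31 and 0.16 in sh2 and sh3 against shControl, and 0 of 3 passed an unadjusted p under 0.05. Bnip3 and Bnip3l are receptors that direct mitochondria to autophagy, and Higd1a is a small inner membrane protein. Bnip3 ranged over 3.73-fold, from 27.6 CPM in sh3 Tmprss11b tumor 3 to 103 CPM in sh2 Tmprss11b tumor 3, with sh3 Tmprss11b tumor 1 next at 90.2 CPM. Bnip3l, by contrast, spanned only 1.72-fold, and per length it was above Bnip3 in 4 of 9 tumors. The windows that Bnip3 shares with other genes apply to this pair.

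The 7 stress, growth and transcription regulators included 2 of the 3 members with the widest spread within groups, Ndrg1 and Ak4 (the other was Eno2). Ndrg1 was at 151, 209 and 83.8 CPM in the 3 shControl tumors, 119, 92.6 and 178 CPM in the 3 sh2 Tmprss11b tumors and 384, 90.0 and 58.7 CPM in the 3 sh3 Tmprss11b tumors. Ndrg1, a stress gene strongly induced by low oxygen, was thus 4.27-fold and 6.54-fold higher in sh3 Tmprss11b tumor 1 than in the other tumors of its group, and its within-group SD of 0.94 on the log2 scale was the largest of the 39. Ak4, a mitochondrial adenylate kinase, followed the same tumor with 44.8 CPM against 9.91 and 9.11 CPM. Mxi1 was at 112, 89.3 and 76.3 CPM in the 3 shControl tumors, 104, 145 and 149 CPM in the 3 sh2 Tmprss11b tumors and 162, 86.4 and 108 CPM in the 3 sh3 Tmprss11b tumors. Mxi1, an antagonist of Myc, had the largest positive fold change for the mean of both knockdown groups, 0.44 (95% interval -0.06 to 0.94), adjusted p = 0.982 by edgeR. Its groups overlapped, with sh2 Tmprss11b tumors 2 and 3 and sh3 Tmprss11b tumor 1 above every control. Ankrd37 was at 5.50, 9.56 and 6.63 CPM in the 3 shControl tumors, 5.01, 5.46 and 9.80 CPM in the 3 sh2 Tmprss11b tumors and 4.99, 5.89 and 3.64 CPM in the 3 sh3 Tmprss11b tumors. Ankrd37, an ankyrin repeat protein and HIF target, was at or under 9.80 CPM throughout, and its log2 fold change was -0.34 (95% interval -1.01 to 0.34) for the mean of both. Bhlhe40, a transcriptional repressor, reached 322 CPM in sh2 Tmprss11b tumor 2, and its log2 fold change in sh3 against sh2 was -0.76 (95% interval -1.58 to 0.07). Ddit4, an inhibitor of mTOR signaling, and Kdm3a, a histone demethylase, ranged over 2.01-fold and 2.52-fold with log2 fold changes of 0.07 and 0.20 for the mean of both.

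**Figure D4:**
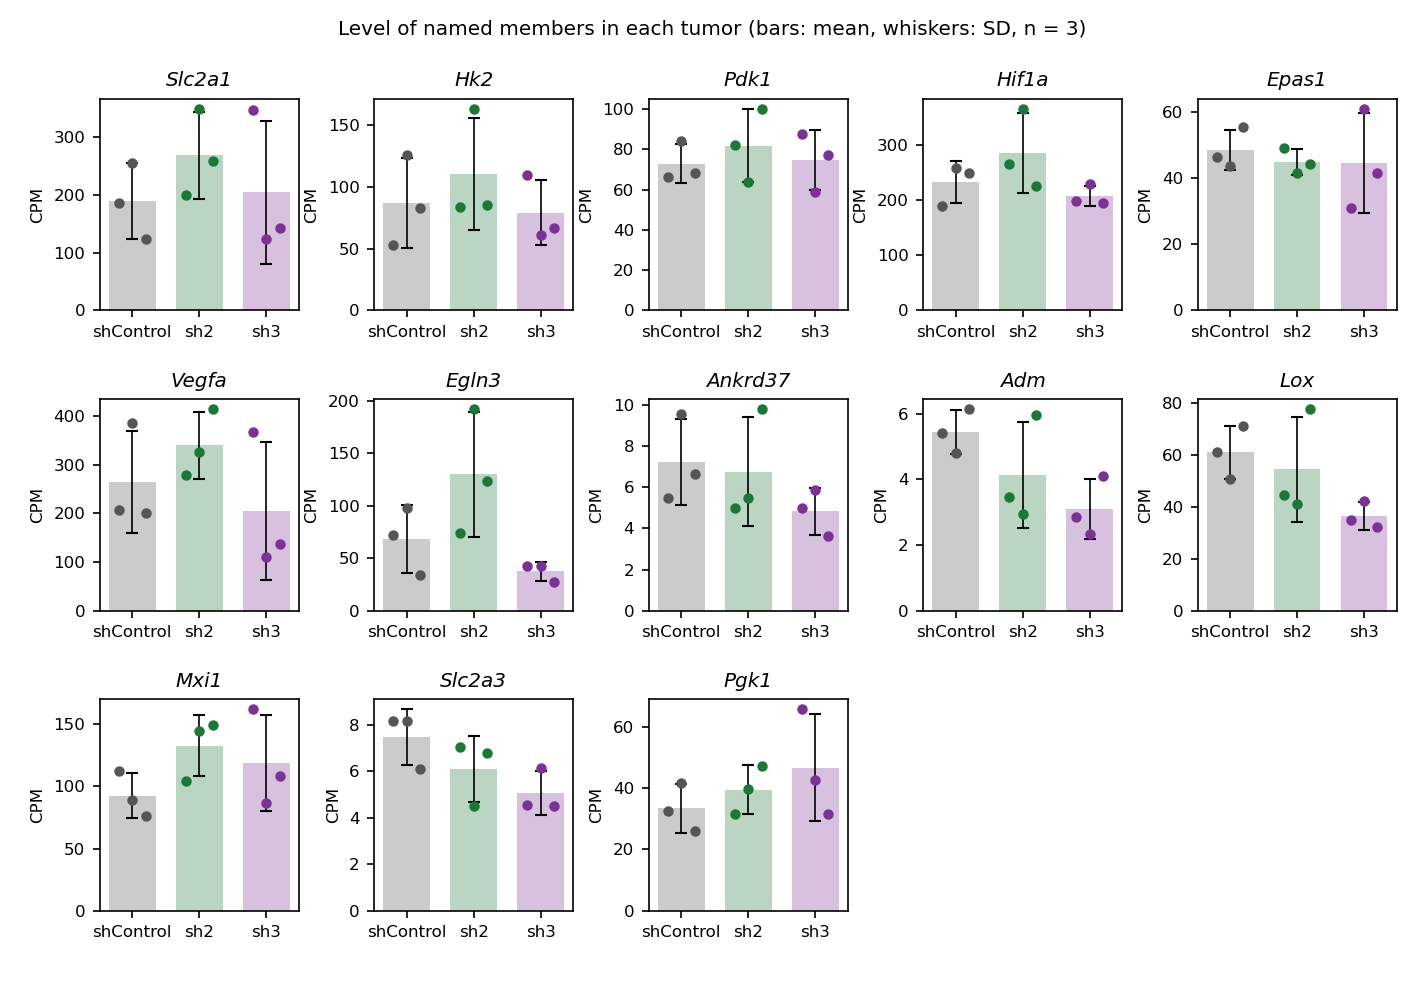
Level in CPM (y axis, from 0) of 13 members in each tumor (points) by group (x axis), with bars for the mean and whiskers for the SD of 3 tumors. The sh2 and sh3 points of Egln3 do not overlap, the sh3 points of Adm and Lox lie below all controls, and the groups overlap for Slc2a1, Vegfa and the other genes.

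Collagen-modifying enzymes hydroxylate and cross-link collagen as tumors stiffen. Lox was at 61.2, 50.6 and 71.1 CPM in the 3 shControl tumors, 44.4, 41.2 and 77.6 CPM in the 3 sh2 Tmprss11b tumors and 34.9, 42.4 and 32.2 CPM in the 3 sh3 Tmprss11b tumors. Lox encodes lysyl oxidase, which cross-links collagen and elastin. All 3 sh3 tumors lay below all 3 controls, and the sh2 group spanned both. The log2 fold change was -0.74 (95% interval -1.31 to -0.17) in sh3 against shControl, unadjusted p = 0.0168 and adjusted p = 0.753, and -0.58 (95% interval -1.15 to -0.01) in sh3 against sh2, unadjusted p = 0.0484 and adjusted p = 0.673 (edgeR). Fibroblasts are a main source of collagen enzymes, and the 10 fibroblast markers were lower in the same comparison: their summed level was 3712 to 6341 CPM in shControl, 2940 to 4807 CPM in sh2 and 1610 to 2903 CPM in sh3 tumors, and 10 of 10 had a negative log2 fold change in sh3 against shControl (median -0.98). Their part in the Lox values was not tested. The hydroxylases did not share the pattern: P4ha1, P4ha2 and Plod2 had log2 fold changes of 0.04, -0.28 and 0.34 in sh3 against shControl. P4ha1 and Plod2 were highest in sh3 Tmprss11b tumor 1 (150.5 and 102 CPM), where Lox was at 34.9 CPM.

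The promoters were examined for the letters that HIF binds. HIF recognises a core of 5 bases, ACGTG or GCGTG, on either strand. RefSeq promoter windows (GRCm38.p6) were found for 32 of the 39 genes, and 38 of their 49 windows of 250 bases upstream of a start site held at least 1 match (77.6%), against 38.6% of 32851 windows of all genes. At least 2 matches were found in 49.0% of the members' windows and 16.7% of all windows, where a CACGTG counts on both strands. Windows of the same gene can overlap and share a match. By gene, 29 of the 32 had a match in any window, against 11226 of 27025 genes. The members were chosen for their place in these pathways, so the higher share is not independent support for that choice. The members' windows were also richer in CpG, with a mean of 16.6 CG pairs against 9.86, and both motif forms hold a CG. A match describes letters and not a binding site. CACGT and CACGC are the same motifs read on the other strand. The stretches of 60 bases shown contain the match nearest to the start site for 9 of the 29 genes with a match, as examples from several roles, in genome coordinates and read 5′ to 3′ on the gene's strand, with the matches in capitals.
Slc2a1, chr4:119108681-119108740, + strand: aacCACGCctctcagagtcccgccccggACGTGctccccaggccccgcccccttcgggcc
Pgk1, chrX:106186941-106187000, + strand: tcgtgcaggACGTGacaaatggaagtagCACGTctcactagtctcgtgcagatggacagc
Hk2, chr6:82774475-82774534, - strand: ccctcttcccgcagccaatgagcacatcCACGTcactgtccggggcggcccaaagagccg
Pdk1, chr2:71873118-71873177, + strand: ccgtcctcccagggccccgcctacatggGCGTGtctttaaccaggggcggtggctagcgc
Hif1a, chr12:73907769-73907828, + strand: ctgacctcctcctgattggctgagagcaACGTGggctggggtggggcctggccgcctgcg
Egln3, chr12:54204065-54204124, - strand: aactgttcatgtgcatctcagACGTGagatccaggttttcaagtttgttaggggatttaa
Ankrd37, chr8:45999851-45999910, - strand: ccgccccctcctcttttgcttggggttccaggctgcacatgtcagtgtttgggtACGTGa
Bnip3, chr7:138909510-138909569, - strand: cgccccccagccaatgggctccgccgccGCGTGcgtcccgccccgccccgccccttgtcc
Adm, chr7:110627575-110627634, + strand: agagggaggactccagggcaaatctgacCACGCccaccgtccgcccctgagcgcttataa

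In the Slc2a1 and Pgk1 stretches the 2 matches lie within 60 bases of each other, whereas the only match of Egln3 is 229 bases before its start. These 9 genes differed in the tumor where they peaked: Slc2a1, Hk2, Hif1a and Egln3 in sh2 Tmprss11b tumor 2, Pdk1, Ankrd37 and Bnip3 in sh2 Tmprss11b tumor 3, Pgk1 in sh3 Tmprss11b tumor 1 and Adm in shControl tumor 3.

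Of other genes of glycolysis, 30 were in the table and 24 were tested. In sh2 against shControl, where 18 of 19 glycolysis members were positive, 7 of these 24 were positive and 17 negative (median -0.15), with 1 higher and 3 lower at an unadjusted p under 0.05. For the mean of both knockdown groups 9 had a positive and 15 a negative log2 fold change (median -0.14), with 0 at a false discovery rate of 0.05 and 2 at an unadjusted p under 0.05, both lower. These were Pfkm and Pgam2, the muscle forms of phosphofructokinase and phosphoglycerate mutase, with log2 fold changes of -1.04 ± 0.32 and -3.01 ± 1.17 (SE). Pgam2 was at 42.4 CPM in shControl tumor 3 and 11.7 CPM in sh3 Tmprss11b tumor 1, the tumors with the most muscle RNA, and at 0.166 to 4.73 CPM in the other 7. Of other HIF and hypoxia genes, 40 were in the table and 39 were tested. In sh2 against shControl 23 were positive and 16 negative (median 0.08). For the mean of both the split was 21 positive and 18 negative (median 0.01), 0 at the false discovery rate and 1 at an unadjusted p under 0.05. It was Ppp1r3c, a glycogen-targeting subunit of protein phosphatase, with 17.4 CPM in shControl tumor 3 and 0.203 to 3.33 CPM elsewhere.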

How the data were processed

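RNA from 9 KLN205 tumors was sequenced as stranded poly-A libraries (TruSeq). Per the study's methods and the submitters' processing notes, the authors checked reads with FastQC, aligned them with STAR 2.5.3a (mm10) and deposited raw read counts per gene from featureCounts. They also deposited CPM, a signal scaled by the library total and edgeR's TMM factor, and TPM, whose gene lengths are not given in the sources used here. The handling of multi-mapped reads and the strand setting are likewise not given in the sources used here. The table also holds 10 columns of the authors' own comparisons (fold changes, test statistics and p-values for each shRNA), which were not used.

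Genes were filtered with edgeR's filterByExpr, scaled by TMM and tested in 1 quasi-likelihood fit over all 9 tumors, with Benjamini-Hochberg adjustment over all 14725 genes and a threshold of 0.05. CPM in the text is TMM-scaled and TPM is as deposited. A count of 3 equals 0.123 to 0.152 CPM. Tools were R 4.3.3 (edgeR 4.0.16, limma 3.58.1, DESeq2 1.42.0) and Python 3.11.15 (pandas 2.3.3, numpy 2.4.6, scipy 1.17.1, matplotlib 3.10.9). The code of the fit was tried on simulated counts with larger fold changes than those of the members. That run does not bear on how small a difference could be detected here. Alternatives were other scalings, filters and tests, limma-trend on log2(TPM + 1), a replicate block, and leaving out each tumor. The labels call the 3 samples of a group biological replicates. The library name of shControl replicate 1 has another form than those of the other tumors, and the labels do not say why.

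The members and gene lists were chosen with earlier results of these data known. Values in every tumor are given for Slc2a1, Hk2, Pdk1, Hif1a, Epas1, Vegfa, Egln3 and Ankrd37, for members with an unadjusted p under 0.05 in any comparison, and for the 5 with the largest absolute log2 fold change for the mean of both shRNAs. Ndrg1 and the other members given by single values were picked after their values were seen. Promoter windows are RefSeq's, and transcript windows come from GENCODE M21. One further shared transcript window is not reported here.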

Additional observations from a re-analysis of the deposited data

Results flagged for a closer look

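Egln3 was singled out because its 3 sh2 Tmprss11b tumors all lay above, and its 3 sh3 Tmprss11b tumors all below, the mean of the shControl tumors. The log2 fold change of sh3 against sh2 was -1.79, with an adjusted p of 0.673 by edgeR's quasi-likelihood test and 0.0183 by DESeq2. Whether the effects of the 2 shRNAs against shControl differ is the same difference, since the control tumors cancel, and it did not pass the edgeR threshold.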

How the results depend on the processing

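0 members and 0 genes passed a false discovery rate of 0.05 under any edgeR quasi-likelihood alternative or limma-trend. DESeq2 called 2, 41, 9 and 46 genes for sh2, sh3 and the mean of both against shControl and sh3 against sh2, of which 1 was a member (Egln3, sh3 against sh2, log2 fold change -1.80), and edgeR's likelihood ratio test called 0, 8, 8 and 14 genes and 0 members. Counts of members at an unadjusted p under 0.05, which are 0, 2, 0 and 3 in that order, changed in some settings. With total counts they became 4 for sh3 (6.86% of all genes passed) and 1 for the mean of both (4.88%). With DESeq2 they became 1, 4 and 5 for sh2, sh3 and sh3 against sh2 (4.77%, 8.09% and 9.28% of all genes). The likelihood ratio test gave 1, 1 and 5 for the same comparisons (4.14%, 5.8% and 7.27%). With only the groups compared they became 1 for sh2 (5.34%) and 1 for sh3 against sh2 (4.26%). On TPM they became 4, 3 and 5 for sh3, the mean of both and sh3 against sh2 (9.0%, 4.9% and 8.3%). Signs turned with total counts for Pdk1 in sh3 (-0.064), Hif1a (-0.011) and Egln3 (-0.041) in the mean of both, with upper-quartile factors for Pdk1 in sh3 (-0.011), and on TPM for Slc2a1 (-0.17) and Pdk1 (-0.16) in sh3 and Pdk1 (-0.032), Hif1a (-0.054) and Egln3 (-0.013) in the mean of both. The Aldoa to Aldoc ratio was 84.9 from counts per kilobase. The cause of these changes was not tested.

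With both muscle-rich tumors left out, an alternative chosen after seeing the data, 9, 1 and 13 members passed an unadjusted p under 0.05 for sh3, the mean of both and sh3 against sh2. Of all genes 9.27%, 3.77% and 16.9% passed in the same order. The medians for sh3 against shControl were -0.24 (glycolysis) and -0.48 (hypoxia). Signs turned for Slc2a1 (-0.74), Pdk1 (-0.14), Epas1 (0.19), Mxi1 (-0.050) and Pgk1 (-0.0017) in sh3, Slc2a1 (-0.23), Hk2 (-0.084), Pdk1 (-0.0099), Epas1 (0.091) and Egln3 (-0.33) in the mean of both, and Epas1 (0.19) and Pgk1 (-0.090) in sh3 against sh2.

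Leaving out 1 tumor at a time, member counts at an unadjusted p under 0.05 changed. For sh2 against shControl 0 to 2 members passed, beside 1.09% to 6.13% of all genes. For sh3 against shControl 1 to 6 passed, beside 3.67% to 14.4%, and for the mean of both 0 to 2, beside 2.03% to 8.28%. In sh3 against sh2 1 to 10 passed, beside 4.46% to 19.0%. The maxima of 6 and 10 members, and of 14.4% and 19.0%, came without sh3 Tmprss11b tumor 1. The hypoxia members' median for sh3 against shControl ran from -0.44 to 0.081 over these fits. Log2 fold changes that changed sign ran over these ranges: sh2 against shControl (Ankrd37 -0.46 to 0.16, Hk2 -0.041 to 0.71, Lox -0.50 to 0.0052), sh3 against shControl (Pdk1 -0.10 to 0.18, Hk2 -0.44 to 0.22, Vegfa -1.10 to 0.0024, Slc2a1 -0.51 to 0.39, Epas1 -0.41 to 0.080), the mean of both (Hk2 -0.16 to 0.47, Hif1a -0.069 to 0.15, Vegfa -0.37 to 0.37, Egln3 -0.29 to 0.40), sh3 against sh2 (Epas1 -0.30 to 0.19, Pdk1 -0.30 to 0.013, Pgk1 -0.090 to 0.43, Mxi1 -0.45 to 0.024).

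Tumors of different groups that share a replicate number did not deviate together on average (mean correlation -0.10 over 9 pairs, 0.05 over 18 pairs of different number). Deviations were taken from group means of 3 tumors, which ties both values to each other, so they cannot exclude a pairing. The labels give no pairing. With the number as a replicate block, 1, 2, 1 and 3 members passed an unadjusted p under 0.05. Of all genes 2.17%, 4.55%, 2.68% and 5.03% passed in the same order, and 0 genes passed the false discovery rate. With 3 tumors a group and a median standard error of 0.27, differences of the size seen for most members were not detectable.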
